A study of Homo sapiens with 57 samples.

Results

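The transcripts described here encode 9 subunits of the Integrator complex, INTS1, INTS3, INTS4, INTS6, INTS7, INTS8, INTS9, INTS10 and INTS11. They were taken by identifier, 1 transcript for each gene (ENST00000404767, ENST00000318967, ENST00000534064, ENST00000311234, ENST00000366994, ENST00000523731, ENST00000521022, ENST00000397977 and ENST00000435064 in that order), from tables that list 228715 transcripts, and all 9 were found and passed the filter on low counts. The symbols come from the list that defines the set, because the tables hold transcript identifiers only. The data are sequenced mRNA of HCT116, a human colorectal carcinoma line, in 9 libraries. In 3 TE7, 3 TA7 and 3 WT libraries, the cells made a piece of Spt5 from residue 1 to 820, with an Avi tag, in which the CTR1 region was in the TE7, the TA7 or the WT form, as the labels name them. Cells of all 3 groups carried Spt5-HA-dhfr, a degron fusion of the endogenous protein, and the mRNA libraries are labelled as without trimethoprim, a drug that protects dhfr fusions from degradation. The fragment was induced in every group with doxycycline at 2 ug/ml for 24 hours, and hygromycin, G418 and blasticidin were in the medium of each.

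Integrator is a nuclear complex that binds RNA polymerase II soon after it starts transcription. Its INTS11 subunit is an endonuclease that cuts nascent RNA, and an attached protein phosphatase 2A removes phosphates from polymerase II and from Spt5. Through these activities the complex forms the 3' ends of small nuclear RNAs and ends transcription of paused polymerases at many protein-coding genes. Spt5, with Spt4 and NELF, is part of the paused polymerase that Integrator recognises.

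The libraries held 68578355 to 73794335 estimated reads in TE7, 65723341 to 90805283 in TA7 and 64364751 to 67628672 in WT. WT replicate 1 stood apart in scaling, with a TMM factor of 0.92 against 0.971 to 1.04 in the other libraries, so results that rest on it are also given without it. The 9 Integrator transcripts together took 0.0471% to 0.0485% of the reads in TE7, 0.0502% to 0.0528% in TA7 and 0.0491% to 0.0511% in WT. Summed in TPM, which weights by length, they stood at 147.8 to 152.5 in TE7, 148.3 to 159 in TA7 and 136.4 to 143.2 in WT, so TE7 lay below WT by share of reads and above it in TPM. The form of CTR1 cannot be told apart from other differences between the lines that carry it. In bulk RNA, fewer cells with a transcript and less of it in each cell cannot be told apart either. The identity of the cells was not checked against marker genes, and Spt5 itself and the other Integrator subunits, INTS2, INTS5 and INTS12 to INTS15 among them, were not analysed here.

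Set per length in TPM, the abundance units that sum to the same total in every library, the 9 transcripts differed widely in level. INTS11 and INTS1 were the most abundant pair in every library, INTS11 leading in TE7 and INTS1 in WT, with means over the 9 libraries of 45.6 and 42.0 TPM. INTS10 was always the third, at 24.9 to 29.5 TPM. INTS4 and INTS9, partners of INTS11 in the cleavage module, followed with means of 12.1 and 10.4 TPM, and their order differed between libraries. INTS3, INTS7 and INTS6 shared the ranks from 6 to 8, with means of 3.37, 3.09 and 3.02 TPM and overlapping ranges. The INTS8 transcript was the lowest in every library, at 0.23 to 1.08 TPM and 50 to 221 reads. A listed transcript need not hold most of its gene's RNA, and reads of other transcripts of the same genes were not added.

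In TE7 cells, INTS11 and INTS7 rose and INTS1 fell relative to WT cells. INTS11, the catalytic endonuclease, was 1.63-fold higher, INTS7, a subunit of the backbone of the complex, was 1.64-fold higher, and INTS1, the large scaffold subunit of that backbone, was at 0.791 of its WT level. The other 6 transcripts did not pass the test. Thus 3 of 9 were called, where 9.4% of all 78478 transcripts tested were called (adjusted p under 0.05 in the quasi-likelihood test of edgeR, 3 libraries per group). Calls are more common among abundant transcripts: of those with a mean of at least 5 CPM (the usual count of a transcript relative to the reads of its library, here with TMM scaling), which 8 of the 9 members reach, 25% were called. By direction, 2 members were higher and 1 was lower, where 4.59% and 4.81% of all tested transcripts were. The median log2 change of the members was -0.047, against -0.021 for all tested transcripts and 0.041 for those of at least 5 CPM.

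The promoters of these called genes are shown because their mRNAs moved in opposite directions. Each sequence covers the 250 bases before the RefSeq start of the gene, read 5′ to 3′ on the gene's strand from build GRCh38.p14, which is not the hg19 build named for the tables. The windows lie at chr1:1324661-1324910 for INTS11, chr1:212035558-212035807 for INTS7 and chr7:1504390-1504639 for INTS1, all on the minus strand. Capitals mark the letters CCGGAAG, the core bound by ETS factors, and CCAAT, the CCAAT box, on either strand.
INTS11: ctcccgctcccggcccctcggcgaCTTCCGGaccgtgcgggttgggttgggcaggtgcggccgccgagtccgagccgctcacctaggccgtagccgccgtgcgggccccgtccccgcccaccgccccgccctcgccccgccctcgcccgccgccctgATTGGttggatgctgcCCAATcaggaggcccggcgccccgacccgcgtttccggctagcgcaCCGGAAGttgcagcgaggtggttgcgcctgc
INTS7: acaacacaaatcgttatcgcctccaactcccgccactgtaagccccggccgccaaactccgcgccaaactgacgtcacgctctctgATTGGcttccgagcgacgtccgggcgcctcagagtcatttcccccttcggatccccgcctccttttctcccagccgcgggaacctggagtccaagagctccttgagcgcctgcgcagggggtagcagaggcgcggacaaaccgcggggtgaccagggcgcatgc
INTS1: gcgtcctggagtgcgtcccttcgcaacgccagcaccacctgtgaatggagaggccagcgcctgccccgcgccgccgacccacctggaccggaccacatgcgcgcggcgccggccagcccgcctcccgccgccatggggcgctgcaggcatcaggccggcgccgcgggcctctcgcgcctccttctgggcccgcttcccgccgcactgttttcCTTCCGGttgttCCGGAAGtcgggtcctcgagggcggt

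The ETS-type letters occurred 2 times in the INTS11 window and 2 times in the INTS1 window, and 0 times in the INTS7 window, while 8.52% of 35116 RefSeq promoter windows of the same length hold them. The CCAAT letters occurred 2 times in INTS11 and 1 time in INTS7, and 0 times in INTS1, against a share of 32% of all windows. The TATAAA letters were in 0 of the 6 member windows searched, against 10.7% of all windows. The 6 windows had a GC content of 62.8% to 76.4%, above the median of 58% over all windows. RefSeq promoter records on the opposite strand overlapped those of INTS7, with DTL, INTS11, with CPTP, and the uncalled INTS6, with INTS6-AS1. Whether the overlap reaches the windows searched here was not tested. The share of all promoters with such an overlap was not computed. Among the members without a call, the INTS3 window held 1 ETS-type and 3 CCAAT matches and the INTS4 window 1 ETS-type match. The windows of INTS8, INTS9 and INTS10, also not called, were not searched. The CCAAT letters were thus in the windows of INTS11 and INTS7, which rose, and not in that of INTS1, which fell. Of the uncalled members searched, INTS3 held them and INTS4 and INTS6 did not. Whether these letters go with the changes was not tested. The GGGCGG letters occurred 5 times in INTS11, 4 in INTS6, 1 each in INTS1 and INTS3, and 0 in INTS7 and INTS4. Of all windows 42.6% hold them. The CACGTG letters occurred 1 time, in INTS6, against 6.34% of all windows. A match is a description of these letters and not a binding site.

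INTS11 had 110, 116 and 98.7 CPM in TE7 replicates 1 to 3, against 79.9, 61.8 and 58.2 CPM in WT. Every TE7 library lay above every WT library. Its fitted log2 change was 0.70 ± 0.15 (SE, n = 3 per group), with a 95% interval of 0.36 to 1.04 (edgeR adjusted p = 0.026). In TPM, INTS11 averaged 57.3 ± 3.94 in TE7 and 35.6 ± 3.09 in WT (SD, n = 3 each). Without WT replicate 1, which had the highest INTS11 value of the WT libraries, the log2 change was 0.86 (edgeR adjusted p = 0.00951). Without TE7 replicate 1, 2 or 3, the edgeR adjusted p was 0.0836, 0.0938 or 0.0555, and without WT replicate 2 or 3 it was 0.0956 or 0.0893, so the call was lost without any 1 of those 5 libraries.

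INTS9 is the non-catalytic partner of INTS11 in a heterodimer, and INTS4 holds that dimer as a scaffold. INTS9 had 18.6, 20.5 and 20.3 CPM in TE7, against 30.1, 21.7 and 22.5 CPM in WT. All TE7 libraries were below all WT libraries, with the highest WT value in replicate 1. The fitted log2 change of -0.32 ± 0.13 (SE) did not pass (edgeR adjusted p = 0.164, unadjusted p = 0.036), and without WT replicate 1 it was -0.16 (edgeR adjusted p = 0.243). INTS9 passed in 1 of 22 alternatives, a fit of only the transcripts of at least 5 CPM that was chosen after the data were examined, at -0.35 (edgeR adjusted p = 0.0303), and 39.5% of all transcripts in that fit were called. INTS4 had 30.2, 28.3 and 30.8 CPM in TE7, against 34.8, 30.5 and 31.8 CPM in WT. The INTS4 groups overlapped narrowly in CPM, while in TPM every TE7 library lay below every WT library. The log2 change of INTS4, -0.12, had a 95% interval of -0.28 to 0.036 in edgeR (adjusted p = 0.314).

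**Figure D1:**
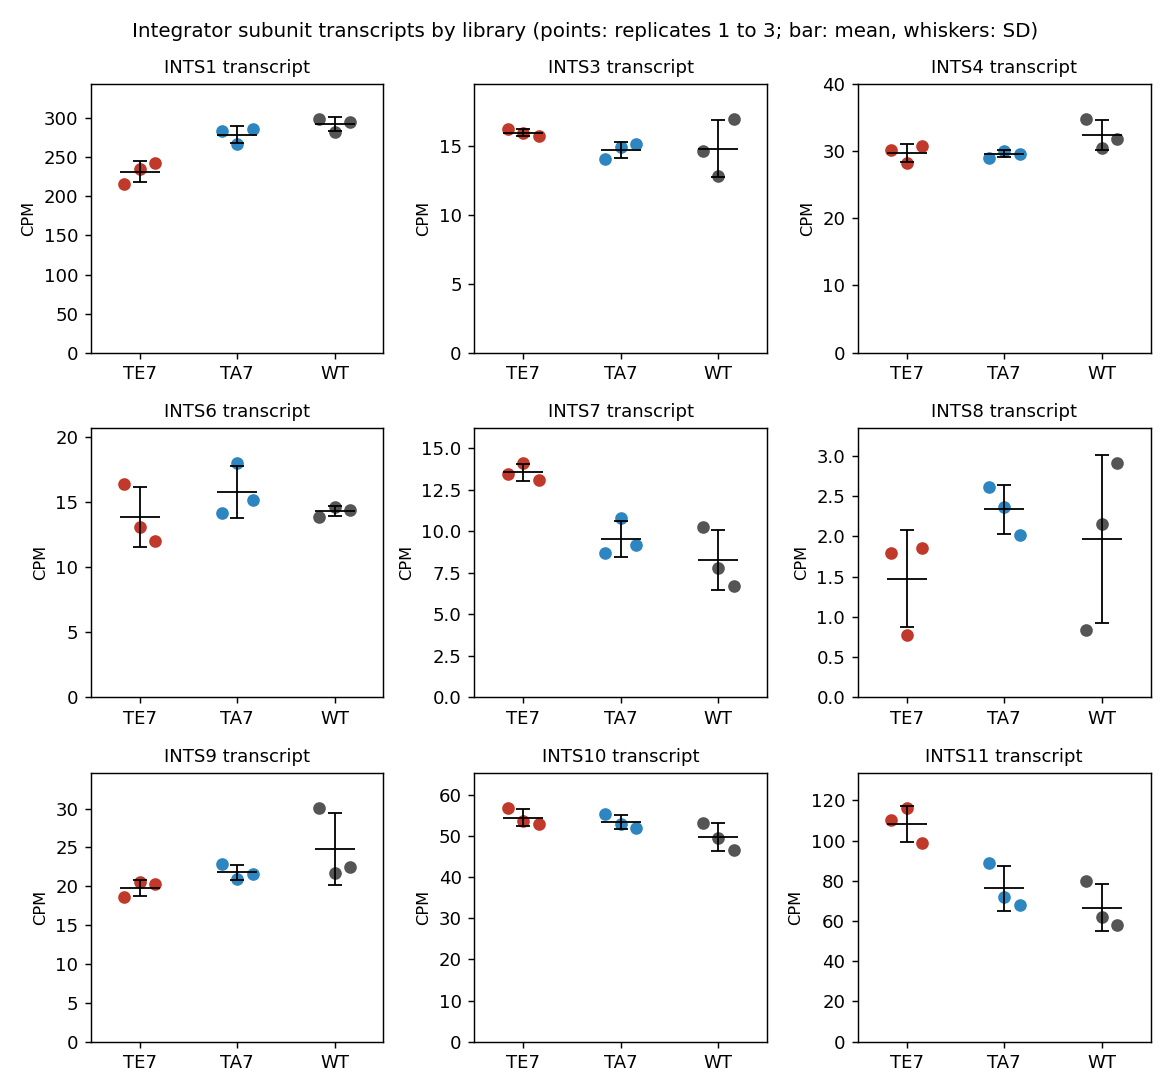
CPM (linear axes from 0) of each Integrator transcript in the 9 libraries, with TE7 at the left, TA7 in the middle and WT at the right of each panel; points are replicates 1 to 3, the bar is the mean and the whiskers the SD. INTS11 and INTS7 lie higher in all TE7 libraries, at 98.7 to 116 and 13.1 to 14.1 CPM, than in any WT library, and INTS1 lies lower, at 216 to 243 CPM.

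Within the cleavage module, INTS11 stood higher relative to its partners in TE7. The TPM ratio of INTS11 to INTS9 was 6.89, 6.55 and 5.63 in TE7, 4.51, 3.98 and 3.62 in TA7, and 3.11, 3.31 and 2.98 in WT. The 3 groups did not overlap in this ratio, and TA7 lay between TE7 and WT. Relative to INTS4, INTS11 stood at 5.11, 5.7 and 4.46 in TE7, 4.29, 3.32 and 3.16 in TA7, and 3.2, 2.81 and 2.51 in WT. Here TE7 lay above both other groups, which overlapped. The ratio of INTS4 to INTS9 was 1.25 ± 0.1 in TE7, 1.13 ± 0.076 in TA7 and 1.11 ± 0.12 in WT (SD, n = 3 each), and overlapped between groups. Such an order of the groups was not particular to the cleavage module. The ratio of INTS10 to INTS1 was 0.725 to 0.845 in TE7, 0.616 to 0.646 in TA7 and 0.545 to 0.596 in WT. Its groups did not overlap either. The ratio of INTS11 to INTS1 was 1.43 to 1.77 in TE7. In TA7 it was 0.833 to 1.09 and in WT 0.697 to 0.929, which overlapped. All these ratios are descriptions without a test.

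**Figure D2:**
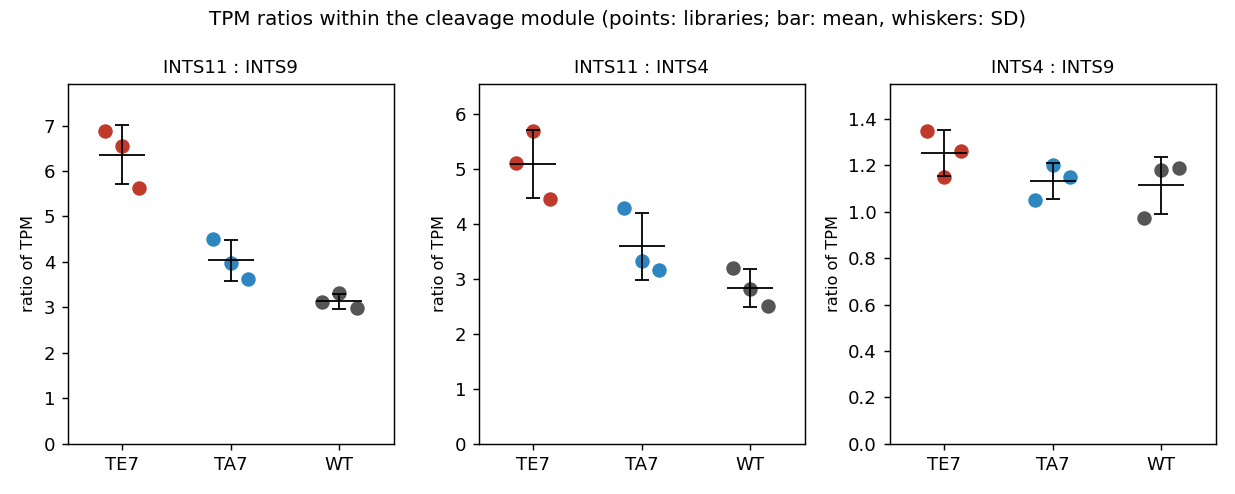
Ratios of TPM between the transcripts of the cleavage module, INTS11 to INTS9, INTS11 to INTS4 and INTS4 to INTS9, in TE7, TA7 and WT libraries (points; bar: mean; whiskers: SD; axes from 0). The INTS11 to INTS9 ratio spans 5.63 to 6.89 in TE7, 3.62 to 4.51 in TA7 and 2.98 to 3.31 in WT, with no overlap, and the INTS4 to INTS9 ratio overlaps between groups.

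In the backbone, the called transcripts went in opposite directions. INTS1 had 216, 236 and 243 CPM in TE7, against 300, 283 and 296 CPM in WT. All TE7 libraries were below all WT libraries. The log2 change was -0.34 ± 0.057 (SE, n = 3 per group), with a 95% interval of -0.47 to -0.20 (edgeR adjusted p = 0.0125), and INTS1 averaged 35.0 ± 1.74 TPM in TE7 and 44.9 ± 3.06 TPM in WT (SD, n = 3 each). Without TE7 replicate 2 the edgeR adjusted p was 0.0514, and INTS1 passed in the other 8 fits that left out 1 library. INTS7 had 13.5, 14.1 and 13.1 CPM in TE7, against 10.3, 7.81 and 6.71 CPM in WT. The groups did not overlap, and WT replicate 1 was again the WT library nearest to TE7. The log2 change was 0.71 ± 0.17 (SE, n = 3 per group), with a 95% interval of 0.33 to 1.10 (edgeR adjusted p = 0.0384).

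The INTS7 call was the least firm of the 3. It was lost with no filter on low counts (edgeR adjusted p = 0.0635) and in a fit of the TE7 and WT libraries alone (edgeR adjusted p = 0.0725). It passed in 1 of the 9 edgeR fits that left out 1 library, the one without WT replicate 1, with a log2 change of 0.90 and an adjusted p of 0.00886. In the other 8 the edgeR adjusted p was 0.107, 0.122 or 0.0954 without TE7 replicate 1, 2 or 3, 0.0582, 0.056 and 0.0697 where a TA7 library, replicate 1, 2 and 3 in turn, was dropped, and 0.123 and 0.103 where WT replicate 2 and WT replicate 3 were left out. In TPM, INTS7 averaged 3.83 ± 0.055 in TE7 and 2.46 ± 0.29 in WT (SD, n = 3 each), again with no overlap.

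The phosphatase-binding subunits gave no call. INTS6, which helps to hold protein phosphatase 2A, had 16.4, 13.1 and 12.0 CPM in TE7, against 13.9, 14.6 and 14.4 CPM in WT. The TE7 values lay on both sides of the WT values, and the log2 change of -0.047 had a 95% interval of -0.37 to 0.28 (edgeR adjusted p = 0.887). INTS8, which also contacts the phosphatase, had 1.8, 0.774 and 1.86 CPM in TE7, against 0.835, 2.16 and 2.91 CPM in WT. Its 95% interval, -1.56 to 0.73 on the log2 scale (edgeR adjusted p = 0.683), was the widest of the members. The fit allows any change within that interval.

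INTS10, the core of a module with INTS13 and INTS14, had 56.9, 53.6 and 53.0 CPM in TE7, against 53.2, 49.5 and 46.6 CPM in WT. The groups overlapped by 1 library on each side, and the log2 change of 0.13 had a 95% interval of -0.018 to 0.28 (edgeR adjusted p = 0.254). INTS3, which is also part of the SOSS complex that binds single-stranded DNA in repair, had 16.2, 15.9 and 15.8 CPM in TE7, against 14.6, 12.9 and 17.0 CPM in WT. Its TE7 values lay inside the WT range, with a log2 change of 0.11 and a 95% interval of -0.14 to 0.36 (edgeR adjusted p = 0.615). Over the 9 members, TE7 lay wholly above WT for 2 and wholly below for 2 in CPM, where 16.8% and 16.1% of all tested transcripts did so.

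**Figure D3:**
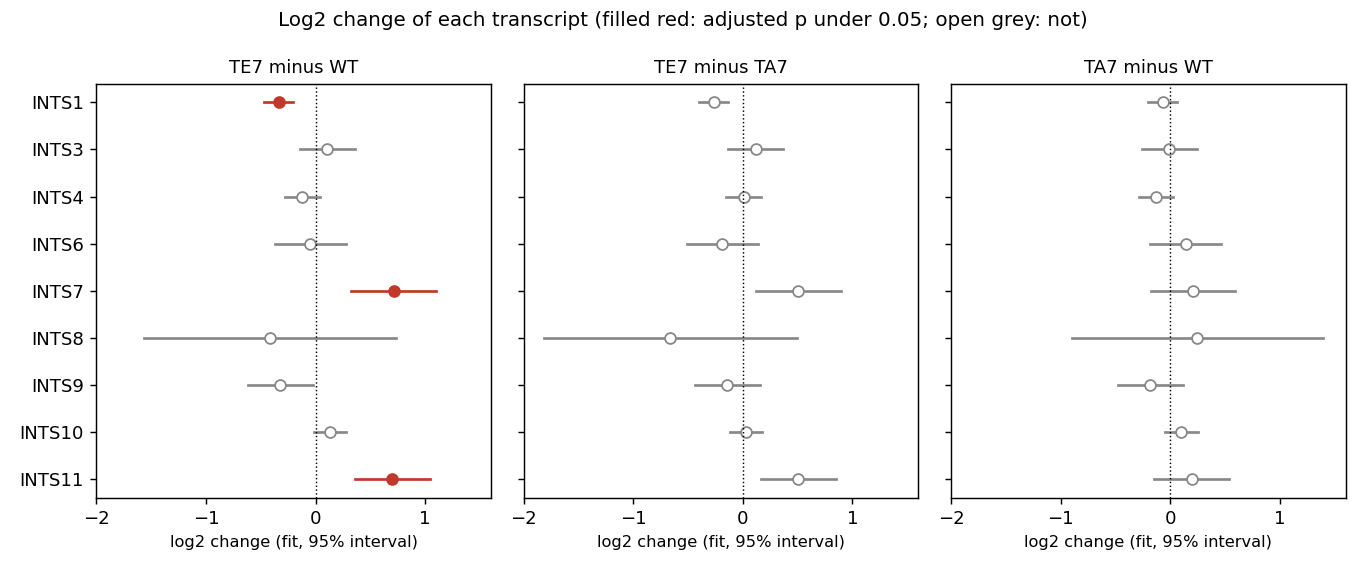
Fitted log2 change of each Integrator transcript for TE7 minus WT, TE7 minus TA7 and TA7 minus WT, with 95% intervals from the edgeR fit; filled red points passed an adjusted p under 0.05, open grey points did not, and the dotted line is no change. INTS1 at -0.34, INTS7 at 0.71 and INTS11 at 0.70 pass in TE7 minus WT, and 0 members pass in the other comparisons in edgeR.

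Among transcripts of at least 5 CPM, the median change in TE7 relative to WT was lower in the longer classes from 2000 bases up, and the members were set beside transcripts of their own length. INTS1 is 6981 bases long, and of 4875 transcripts of 4000 to under 8000 bases and at least 5 CPM, 22% were called lower and 7.02% higher, with a median log2 change of -0.16. Of the same class, INTS7, at 4430 bases, rose by 0.71, while INTS6 at 7350 and INTS3 at 5252 bases had changes of -0.047 and 0.11. INTS11, at 2148 bases, belongs to the class of 2000 to under 3000 bases, where 15.8% were called higher and 8.44% lower and the median was 0.14. INTS9 at 2549 and INTS10 at 2517 bases belong to this class too, with changes of -0.32 and 0.13. INTS4, at 3146 bases, had a change of -0.12 in the class of 3000 to under 4000 bases, where the median was 0.016. The part of length in these changes was not tested. With the effective length of each transcript in each library as an offset, the same 3 members passed in edgeR, where 10.3% of all tested transcripts did.

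**Figure D4:**
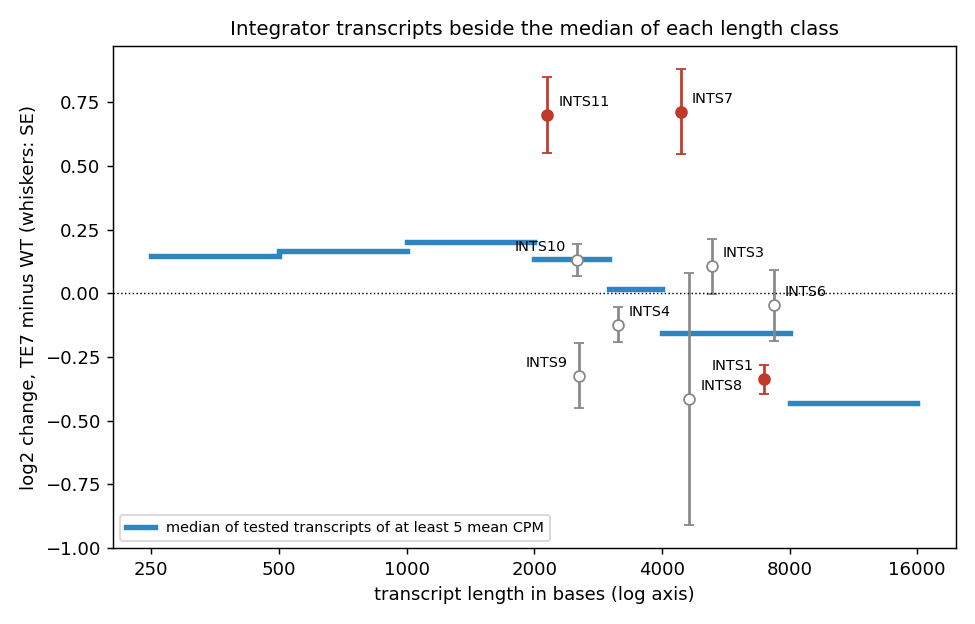
Log2 change of TE7 minus WT (vertical axis; whiskers: SE) against transcript length in bases (log axis) for the 9 Integrator transcripts, with filled red points for adjusted p under 0.05 and open grey points for the others; blue lines are medians of tested transcripts of at least 5 mean CPM in each length class, the outer classes being open-ended. The medians are 0.14 to 0.20 below 3000 bases and -0.43 at 8000 bases or more. INTS3, INTS6, INTS7 and INTS11 lie above the lines of their classes, and the other members lie below.

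Between TE7 and TA7 cells 0 of the 9 transcripts passed, where 3.07% of all tested transcripts did (edgeR quasi-likelihood test, n = 3 per group). At an unadjusted p under 0.05 there were 3 members, INTS1, INTS7 and INTS11, where 19.3% of all tested transcripts were. INTS1 was nearest to the threshold: its TA7 values of 283, 267 and 287 CPM all lay above the TE7 values, with a log2 change of -0.27 ± 0.057 (SE) for TE7 minus TA7 (edgeR adjusted p = 0.0523). It passed in 10 of 22 alternative analyses, with an adjusted p of 2.64e-05 in DESeq2 and 0.0342 in edgeR without WT replicate 1. INTS11 had 88.9, 72.0 and 67.9 CPM in TA7, all below TE7, with a log2 change of 0.51 and a 95% interval of 0.17 to 0.85 (edgeR adjusted p = 0.114). INTS7 had 8.71, 10.8 and 9.14 CPM in TA7, also all below TE7, with a log2 change of 0.51 and an interval of 0.12 to 0.89 (edgeR adjusted p = 0.151). DESeq2 called INTS1, INTS11 and INTS7 in this comparison, INTS11 with an adjusted p of 0.0127 and INTS7 with 0.0397, and limma on log2(TPM + 1) called INTS1, at -0.39 with an adjusted p of 0.0222. Over all tested transcripts, DESeq2 called 13.5% and limma 3.95%.

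The remaining members had log2 changes of -0.66 (INTS8) to 0.12 (INTS3) for TE7 minus TA7. TA7 values were 2.62, 2.37 and 2.02 CPM for INTS8 and 22.9, 21.0 and 21.6 CPM for INTS9, all above TE7. INTS3, at 14.1, 15.0 and 15.1 CPM in TA7, lay wholly below TE7 in CPM but not in TPM, and its log2 change was -0.011 in limma on log2(TPM + 1). In CPM, TE7 lay wholly above TA7 for 3 members and wholly below for 3, where 15.8% and 15.6% of all tested transcripts did so.

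Between TA7 and WT cells 0 of the 9 transcripts passed, where 0.0612% of all tested transcripts did, and 0 members had an unadjusted p under 0.05, where 7.73% did, in edgeR. DESeq2 and limma also called 0 members, where DESeq2 called 2.79% of all tested transcripts and limma 0.0296% to 0.218% over its 3 settings. The fitted log2 changes ran from -0.18 for INTS9 to 0.25 for INTS8, with a median of 0.10, against 0 for all tested transcripts. These values rested on WT replicate 1: without it INTS9 was at -0.007, INTS8 at -0.107 and the median at -0.007. For INTS11 the log2 change was 0.20 with a 95% interval of -0.15 to 0.54, and for INTS7 it was 0.21 with an interval of -0.18 to 0.60 (edgeR adjusted p = 0.892 and 0.917). The upper bounds correspond to 1.45-fold and 1.51-fold, which lie within what the fit allows. INTS1 was at -0.069 with an interval of -0.20 to 0.063. Without WT replicate 1, 3 members had an unadjusted p under 0.05 in edgeR: INTS7 at a log2 change of 0.41, INTS11 at 0.36 and INTS10 at 0.17. The share of all tested transcripts under that p in this fit was not computed. After adjustment 0 members passed (edgeR adjusted p = 0.413, 0.452 and 0.446 for these 3), where 0.187% of all tested transcripts did. Groups were separate in CPM for 1 member, INTS4, with TA7 at 29.0, 30.1 and 29.6 CPM and below every WT library, where 14.1% of all tested transcripts were separate in either direction. In TPM the INTS4 groups overlapped. INTS10 was instead separate in TPM, at 28.8 to 29.5 in TA7 and 24.9 to 26.4 in WT. The share of all tested transcripts separate in TPM was not computed. TE7 minus WT and TA7 minus WT use the same WT libraries, so their values are not independent of each other.

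Across the 9 libraries the most alike of the 36 pairs of members were INTS4 with INTS9, INTS3 with INTS10 and INTS1 with INTS9. Their centred log2 CPM differed by 0.096, 0.098 and 0.099 on average per library. The least alike were INTS7 with INTS8, INTS8 with INTS11 and INTS8 with INTS9, at 0.77, 0.75 and 0.59, and INTS8 has the fewest reads of all members. Within groups, the coefficient of variation of CPM was 41.3% in TE7, 12.9% in TA7 and 53.4% in WT for INTS8. For INTS1, with 14546 to 24858 reads per library, it was 5.92% in TE7, 3.83% in TA7 and 2.93% in WT. In WT, the coefficient was 22% for INTS7, 17.4% for INTS11 and 18.8% for INTS9, and replicate 1 held the highest WT value of each.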

How the data were processed

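For each library the authors deposited a table of estimated counts and TPM per transcript. Per the submitters' processing notes, cutadapt 2.3 and Salmon 1.3.0 were used, with the build hg19; the transcript set is not named in the labels. In the deposited tables, estimated counts carry no normalization and share out reads that match several transcripts, while TPM divides them by the effective length of the transcript in that library and scales to a common total. Lengths and effective lengths in bases are as given per the file headers. Here, counts were rounded, filtered with edgeR's default, which left 78478 transcripts, and scaled with TMM. One edgeR 4.0.16 quasi-likelihood model with group as its term was fitted to the 9 libraries, and p-values were adjusted over all transcripts by Benjamini-Hochberg. Standard errors and intervals come from this model. Simulated data were used to examine its calls and estimated changes, not its standard errors or intervals. Alternatives used DESeq2 1.42.0, limma 3.58.1 on log2(TPM + 1) or log2(TPM + 0.1), other scalings and filters, and left-out libraries. No source says that replicates are separate cultures, so a p-value reflects the spread among these libraries, possibly a technical one. Intervals leave out the error of sharing reads between transcripts. There were 0 pairs of identical libraries. All 9 members are named. The members and lists were chosen with earlier results of these data known, and the promoter motifs after the sequences had been seen. The other 48 samples were not analysed here.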

Additional observations from a re-analysis of the deposited data

How the results depend on the processing

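The 9 transcripts were followed through 22 alternatives; the fit limited to transcripts of at least 5 mean CPM was chosen after the data were examined and has no INTS8. For TE7 minus WT, 3 members were called in the main fit, where 9.4% of all transcripts were. The count was 4 in the fit of at least 5 CPM, where 39.5% of all transcripts were called. It was 2 with no filter, the replicate block and only the groups compared, where 3.06%, 6.77% and 6.96% of all were. With 1 library left out it was 0 to 3, where 3.71% to 11.7% of all were called. The count of 0 was without TE7 replicate 2, where 3.71% of all were. INTS1 passed in 21, INTS11 in 17 and INTS7 in 11 of the 22. For TE7 minus TA7, the count of 0 became 3 in DESeq2, where 13.5% of all transcripts were called. In the fit of at least 5 CPM it was 2, where 27.6% were. It was 1 with library size alone, a 1 CPM filter, the effective length offset and only the groups compared. All 3 limma settings also gave 1, as did dropping both replicates 1 of WT and TA7. In these settings with 1 call, 0.948% to 9.82% of all transcripts were called. With 1 library left out the count was 0 to 1, where 0.354% to 5.63% of all were called. For TA7 minus WT the count was 0 in all 22, where 0% to 2.79% of all transcripts were called. The members' median log2 change for TE7 minus WT, -0.047, was -0.142 in limma on log2(TPM + 1) with and without the filter, -0.153 with a pseudocount of 0.1, and -0.118 to 0.05 with 1 library left out. For TE7 minus TA7 the median of 0.008 was -0.057 with library size alone, -0.112 in limma with and without the filter and -0.12 with a pseudocount of 0.1, a setting that moved the median of all transcripts to -0.125, against -0.02. With library size alone the median of all transcripts was -0.085. In limma on log2(TPM + 1) it was -0.055 with the filter and -0.01 without it. For TA7 minus WT the median of 0.103 was 0.021 without WT replicate 1 and TA7 replicate 1, and -0.007 to 0.125 with 1 library left out. Changes of sign were seen among transcripts and comparisons with no call. For TE7 minus TA7, INTS4 was at -0.057 with library size alone, -0.007 with the 1 CPM filter, -0.012 without both replicates 1 of WT and TA7, -0.028 in the fit of at least 5 CPM, and -0.112, -0.12 and -0.112 in limma; INTS10 was at -0.038 with library size alone, -0.009 in the fit of at least 5 CPM, and -0.108, -0.112 and -0.108 in limma; INTS3 was at -0.011, -0.014 and -0.011 in limma. For TA7 minus WT, INTS3 was at 0.044 with library size alone, 0.01 with no filter, 0.005 with the effective length offset, 0.021 without both replicates 1, and 0.079, 0.103 and 0.079 in limma; INTS1 was at 0.042, 0.043 and 0.042 in limma, and INTS8 at -0.199 without both replicates 1. With 1 library left out, ranges that crossed 0 were -0.015 to 0.046 for INTS4 and -0.004 to 0.054 for INTS10 in TE7 minus TA7, -0.173 to 0.05 for INTS6 in TE7 minus WT, and -0.099 to 0.102 for INTS3 and -0.107 to 0.643 for INTS8 in TA7 minus WT. The cause of these shifts was not tested. Deviations of libraries that share a replicate number had correlations of -0.037 to 0.19 for TE7 with WT and -0.096 to 0.133 for TE7 with TA7. For TA7 with WT they were -0.03 to 0.29. Between different numbers, the values were -0.197 to 0.087 for TE7 with WT and -0.11 to 0.123 for TE7 with TA7. For TA7 with WT these were -0.302 to 0.129. The ranges overlap, so these values do not settle whether the numbers pair the samples. With the replicate block, TE7 minus WT was -0.338 for INTS1, 0.725 for INTS7 and 0.715 for INTS11 (edgeR adjusted p = 0.0301, 0.066 and 0.0174).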
